A study of Homo sapiens with 6 samples.

Results

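SELENOM and 9 other selenoprotein genes that carry the SELENO symbol (SELENOF, SELENOS, SELENOK, SELENOT, SELENON, SELENOI, SELENOP, SELENOW and SELENOH) were followed in EGFR-mutant lung cancer lines before and after selection for resistance to an EGFR kinase inhibitor. They are 10 of the 21463 genes in the deposited tables and were picked from a list of symbols. SELENOO and SELENOV also carry the SELENO symbol but are given below with the other selenoprotein genes. SELENOM led to the choice because it was higher in the resistant library of every line, so its difference between parental and resistant libraries is given as a description, with no test, and the same holds for the other members. Selenoproteins hold selenocysteine, an amino acid that resembles cysteine with selenium in place of sulfur, and most of those with a known activity are redox enzymes. Selenocysteine is inserted at an in-frame TGA codon that would otherwise end translation, with the help of a hairpin in the tail of the mRNA, a binding protein for that hairpin, a dedicated elongation factor and a dedicated tRNA. Many of the members sit in the endoplasmic reticulum (ER), where they take part in protein folding and clearance, calcium handling or lipid synthesis.

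The series holds 6 libraries of polyadenylated RNA from 3 established human non-small cell lung cancer lines, each as untreated parental cells and as 1 subline grown out under stepwise drug selection for 90 days. HCC827 and PC9 carry the EGFR deletion labelled E19Del and gave the gefitinib-selected sublines HCC827-GR and PC9-GR. H1975 carries L858R/T790M and gave the osimertinib-selected subline H1975-OR. Gefitinib blocks the EGFR kinase reversibly and osimertinib binds it covalently, also with the T790M change. The labels give half-maximal inhibitory concentrations of 0.016 to 0.07 µM for the parental cells and 4.288 to 12.485 µM for the sublines. Whether a subline is 1 clone or a mixed population, and whether drug was present when RNA was taken, is not given in the sources used here. Each line has 1 library per state, so a difference within a line has no replicate, and parental and resistant states are compared over 3 lines.

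Total exon reads per library ranged from 21222102 to 29366085, of which 90.8% to 91.7% mapped to 1 place. Levels are given as CPM (reads scaled to library size, with TMM factors) to compare libraries, and as TPM (reads scaled to library size and exon length) to compare genes. Where a library held no read of a gene, the upper limit (3 reads) was 0.0983 to 0.145 CPM, and intervals and such limits cover counting error only. The epithelial keratin KRT8 was at 839 to 4072 CPM in all 6 libraries. EPCAM was at 0.459 CPM and CDH1 at 0.131 CPM in H1975-OR, so these epithelial markers were nearly absent there. In HCC827 EPCAM went from 431 to 10.5 CPM and CDH1 from 466 to 22.1 CPM, parental first. Each of the 5 epithelial markers was lower in all 3 resistant libraries than in the parental library of the same line, as were 13.5% of all kept genes. In PC9 their log2 ratios ran only from −0.62 (KRT8) to −0.02 (EPCAM). Their summed level, mostly keratins, was 2250 to 10003 CPM in parental and 1422 to 5274 CPM in resistant libraries. Of the leukocyte markers PTPRC was at most at 0.417 CPM and CD3E at 0.193 CPM, while CD68, which tumour cells can also express, was at 50.8 to 175 CPM with log2 ratios of resistant to parental of 1.11 (HCC827), 1.26 (PC9) and −0.07 (H1975). Of the fibroblast markers COL1A1 was at 14.6 to 126 CPM, highest in H1975-OR, COL3A1 was at most at 2.73 CPM, LUM at 2.69 CPM and DCN at 0.112 CPM. Of the endothelial markers PECAM1 was at most at 14.4 CPM and CDH5 at 5.64 CPM, both in parental PC9, and VWF at 0.748 CPM. Of the alveolar markers NKX2-1 was at 140 and 121 CPM in HCC827 and NAPSA at 289 and 28.8 CPM, parental first. In PC9 and H1975 NKX2-1 was at most at 8.43 CPM and NAPSA at 0.551 CPM, both in parental H1975. SFTPB was at most at 3.31 CPM and SFTPC at 0.0424 CPM. The hepatocyte markers ALB, APOA1 and TTR summed to at most 0.254 CPM. In bulk RNA, fewer cells of a kind and less RNA per cell cannot be told apart.

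The sequence around the selenocysteine codon shows what the members share and how they differ. Codons were taken from the canonical GENCODE v44 transcripts on hg38, whose member genes overlap those of the files on the same strand in 10 of 10 cases. The windows below are coding sequence, 5′ to 3′, with up to 15 bases on each side. Capitals mark the selenocysteine TGA and, where there is one, the cysteine codon 3 or 2 codons before it, which together form a redox pair like that of thioredoxin. They are shown for SELENOM, for its structural relative SELENOF, for the small redox proteins SELENOT, SELENOW and SELENOH, and for SELENOI as a contrast.
SELENOM: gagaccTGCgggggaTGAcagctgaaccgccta
SELENOF: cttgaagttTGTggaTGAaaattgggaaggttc
SELENOT: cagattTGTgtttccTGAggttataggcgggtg
SELENOW: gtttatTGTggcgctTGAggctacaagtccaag
SELENOH: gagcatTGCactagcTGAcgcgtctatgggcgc
SELENOI: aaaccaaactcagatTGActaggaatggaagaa
In SELENOM the codon is number 48 of 145, in exon 2 of 5, at chromosome 22, 31105951 to 31105953, on the minus strand. A cysteine codon lay 3 codons before the TGA in 4 members (SELENOM, SELENOT, SELENOW and SELENOH) and 2 codons before it in SELENOF. SELENOP also has one 2 codons before the TGA at codons 330 and 345. In SELENOI, codon 387 of 397 was the TGA and neither position before it was cysteine. SELENOS (codon 188 of 189) and SELENOK (codon 92 of 94) carry it at the very end of the protein. SELENOP has 10 such codons in its canonical transcript, SELENON 2 and the other 8 members 1 each.

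SELENOM (ENSG00000198832, hg38 chromosome 22, 31104772 to 31120069, minus strand) encodes a small thioredoxin-like protein of the ER lumen, linked to redox and calcium regulation. It was at 7.16 CPM in parental HCC827 and 33.9 CPM in HCC827-GR, from 197 and 907 reads. PC9 had 3.71 CPM in the parental and 14.1 CPM in the resistant library, from 77 and 337 reads. H1975 had 62.7 and 139 CPM, from 1479 and 4251 reads. The resistant library was the higher one in each line, but the groups overlapped, since parental H1975 was above both gefitinib-selected sublines. The ratio of resistant to parental was 4.74 in HCC827 (95% counting interval 4.05 to 5.55), 3.79 in PC9 (2.95 to 4.92) and 2.22 in H1975 (2.10 to 2.36). The fitted log2 fold change over the lines was 1.77 ± 0.28 (SE, n = 3 lines), and it lay between 1.50 without HCC827 and 2.10 without H1975. All SELENOM reads mapped uniquely. The epithelial markers were lower in the same 3 resistant libraries, in PC9 by as little as a log2 ratio of −0.02 (EPCAM). Their summed levels were 10003 and 2471 CPM in HCC827, 6530 and 5274 CPM in PC9, and 2250 and 1422 CPM in H1975. The part of these markers in the SELENOM difference was not tested.

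Reads in SELENOM introns, which come from unspliced or retained transcript, were few. They went from 13 to 25 in HCC827, from 6 to 13 in PC9 and from 93 to 286 in H1975. The scaled intron ratio was 1.98 (95% counting interval 0.974 to 4.21), 1.88 (0.665 to 6.02) and 2.38 (1.88 to 3.04) in the same order. The interval excluded equal levels in H1975, and in HCC827 and PC9 a difference was not detectable at this depth.

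**Figure D1:**
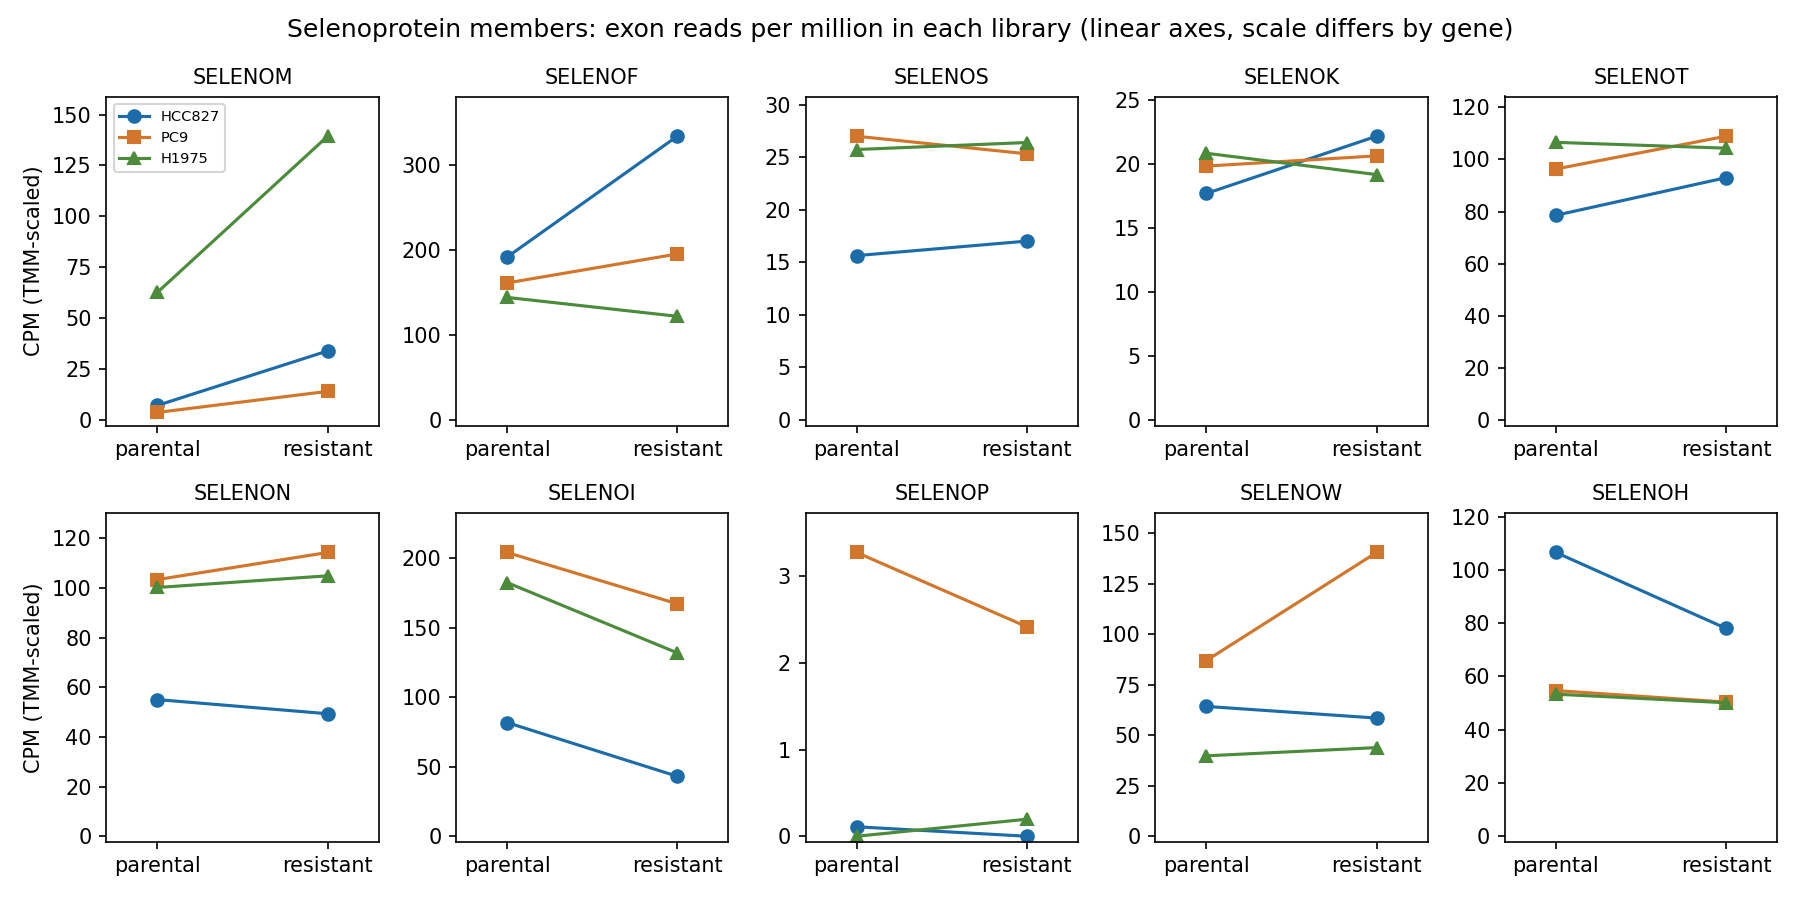
Exon read level (TMM-scaled CPM, linear axes with a scale per gene) of the 10 members in parental and resistant libraries; each line joins the 2 libraries of HCC827, PC9 or H1975. SELENOM runs upward and SELENOI downward in all 3 lines, and the H1975 line lies far above the other lines for SELENOM.

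Per length, SELENOM moved through the order of the members. It held 16.5 TPM in parental HCC827 and 73.9 TPM in HCC827-GR, ranks 9 and 4 of 10. PC9 had 8.71 TPM (rank 9) and 32.4 TPM (rank 7). In H1975 it was at 187 TPM (rank 2) and at 388 TPM in H1975-OR, where it was the most abundant member and stood at place 307 among all genes. Its share of the summed TPM of the 10 members was 2.42% and 9.16% in HCC827, 1.21% and 3.68% in PC9, and 20.2% and 37.6% in H1975. The summed TPM of the members was higher in the resistant library of each line: 682 against 807 in HCC827, 720 against 882 in PC9, and 923 against 1031 in H1975. Without SELENOM the sum was 665 against 733 in HCC827, 711 against 850 in PC9 and 737 against 643 in H1975, so in H1975 it was then lower in the resistant library. Over the members and the 15 other selenoprotein genes the sum was 2249 against 2043, 2663 against 3060 and 2711 against 2368 TPM, higher in the resistant library of PC9 alone. In the parental libraries the top place belonged to SELENOF (HCC827 and H1975) or to SELENOW (PC9).

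**Figure D2:**
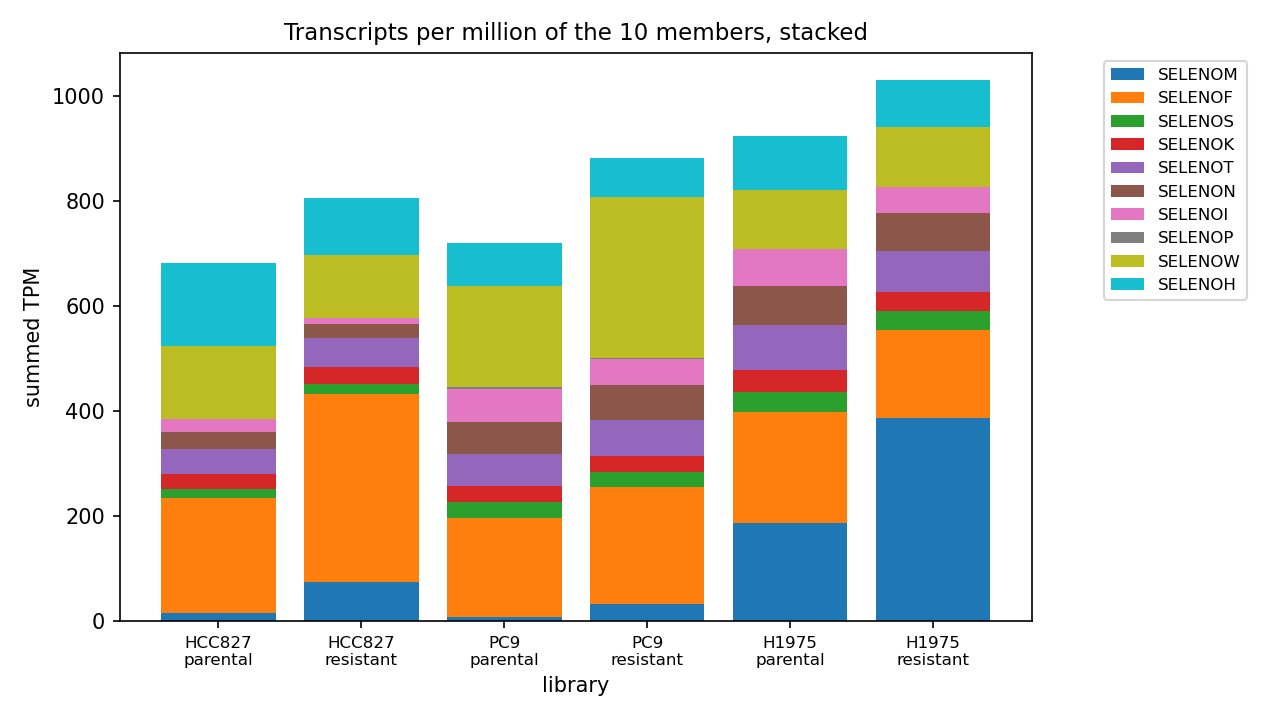
TPM of the 10 members stacked for each library, with the 3 lines side by side. The SELENOM block grows from 8.71 TPM in parental PC9 to 388 TPM in H1975-OR, where it is the largest block.

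SELENOF, which has the same thioredoxin-like fold and binds the ER enzyme that checks the folding of glycoproteins, was higher in the resistant library of 2 lines and lower in that of H1975. Its level was 191 and 334 CPM in HCC827, 161 and 195 CPM in PC9, and 144 and 122 CPM in H1975, parental first. The ratio of resistant to parental was 1.74 in HCC827 (95% counting interval 1.68 to 1.80), 1.21 in PC9 (1.16 to 1.27) and 0.846 in H1975 (0.807 to 0.886), so all 3 were clear of counting error. The fitted log2 fold change was 0.28 ± 0.26 (SE, n = 3 lines), so the mean difference was about as large as its error.

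SELENOS, SELENOK, SELENOT and SELENON, all of the ER membrane, had resistant to parental ratios between 0.897 and 1.25. SELENOS and SELENOK, which bind the complex that pulls misfolded proteins out of the ER, were at 15.6 to 27.0 CPM and 17.7 to 22.1 CPM over the 6 libraries. The ratios of SELENOS were 1.09, 0.938 and 1.03 in HCC827, PC9 and H1975, and each counting interval held 1. For SELENOK they were 1.25 (1.11 to 1.42), 1.04 and 0.920, with intervals that held 1 in PC9 and H1975. SELENOT, a thioredoxin-like protein of the ER membrane, had 1.18, 1.13 and 0.979. SELENON, which regulates calcium pumping into the ER and is mutated in a congenital muscle disease, had 0.897, 1.11 and 1.05. Only 31.9% of SELENON reads were unique. With unique reads alone, the SELENON log2 ratio in PC9 was −0.04 in place of 0.14. In H1975 the sign of SELENOS and SELENON turned with library size alone (SELENON at −0.01) and with TPM (SELENON at −0.03). The fitted log2 fold changes were 0.02 ± 0.20 for SELENOS, 0.09 ± 0.23 for SELENOK, 0.13 ± 0.16 for SELENOT and 0.02 ± 0.17 for SELENON (SE, n = 3 lines).

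SELENOI (ENSG00000138018, hg38 chromosome 2, 26308547 to 26395891, plus strand), the ER enzyme that makes phosphatidylethanolamine from diacylglycerol, was lower in each resistant library. HCC827 had 81.7 CPM in the parental and 43.1 CPM in the resistant library, PC9 204 and 167 CPM, and H1975 182 and 132 CPM. The parental and resistant ranges overlapped, because the HCC827 libraries lay below those of the other lines. The ratio was 0.527 (95% counting interval 0.490 to 0.566) in HCC827, 0.819 (0.784 to 0.856) in PC9 and 0.723 (0.692 to 0.755) in H1975. The fitted log2 fold change was −0.56 ± 0.20 (SE, n = 3 lines). SELENOI intron reads went from 89 to 26 in HCC827 and from 217 to 85 in PC9, scaled ratios of 0.300 (0.186 to 0.470) and 0.339 (0.261 to 0.438). In H1975 they went from 185 to 237, a ratio of 0.991 (0.814 to 1.21), so the intron reads of H1975 did not show the difference seen in its exon reads. In the files the SELENOI gene overlaps ADGRF3 on the other strand, and whether reads were counted by strand is not given in the sources used here.

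Among 9 kept genes of ethanolamine and choline phospholipid synthesis, the pathway of SELENOI, 0 passed the edgeR test of states described below. That test called 0 of 13541 genes in all. Of the 9 genes, 2 were higher and 1 was lower in all 3 resistant libraries, where 14.3% and 13.5% of all kept genes were. ETNK1, the kinase that starts the ethanolamine branch, gave log2 ratios of −0.81 (HCC827), −0.30 (PC9) and −0.18 (H1975). CEPT1, which can carry out the same last step as SELENOI, had 0.26, 0.05 and 0.06. PISD, the mitochondrial enzyme that makes phosphatidylethanolamine by another route, had 0.87, 0.11 and 0.50. Scaling by library size alone or by TPM left 1 gene higher in all 3 lines.

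The small cytosolic and nuclear members went different ways. SELENOW, a glutathione-binding redox protein whose mRNA is sensitive to selenium supply, was at 64.2 and 58.5 CPM in HCC827, 86.9 and 140 CPM in PC9, and 39.8 and 43.9 CPM in H1975. PC9 stood out with a ratio of 1.62 (95% counting interval 1.52 to 1.71), against 0.910 (0.850 to 0.975) and 1.10 (1.01 to 1.20) in HCC827 and H1975. SELENOH, a nucleolar redox protein, was lower in each resistant library: 107 and 78.0 CPM in HCC827, 54.7 and 50.4 CPM in PC9, and 53.4 and 50.1 CPM in H1975. Its ratios were 0.732 (0.692 to 0.775), 0.921 (0.849 to 1.00) and 0.939 (0.871 to 1.01), so the difference was clear of counting error in HCC827 and barely so in PC9. SELENOH overlaps 3 other genes in the files and 79.1% of its reads mapped uniquely.

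SELENOP, the secreted selenium carrier made mainly by liver, was close to undetected outside PC9. It had 3 reads in parental HCC827 and 0 in HCC827-GR, 68 and 58 reads in the PC9 libraries, and 0 and 6 in those of H1975. In PC9 this gave 3.28 and 2.42 CPM, a ratio of 0.738 with a counting interval of 0.511 to 1.06. Only 35.6% of the reads mapped uniquely, and the gene overlaps CCDC152 on the other strand, so the level is uncertain. It was the 1 member that did not pass the filter on low counts over the 6 libraries.

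**Figure D3:**
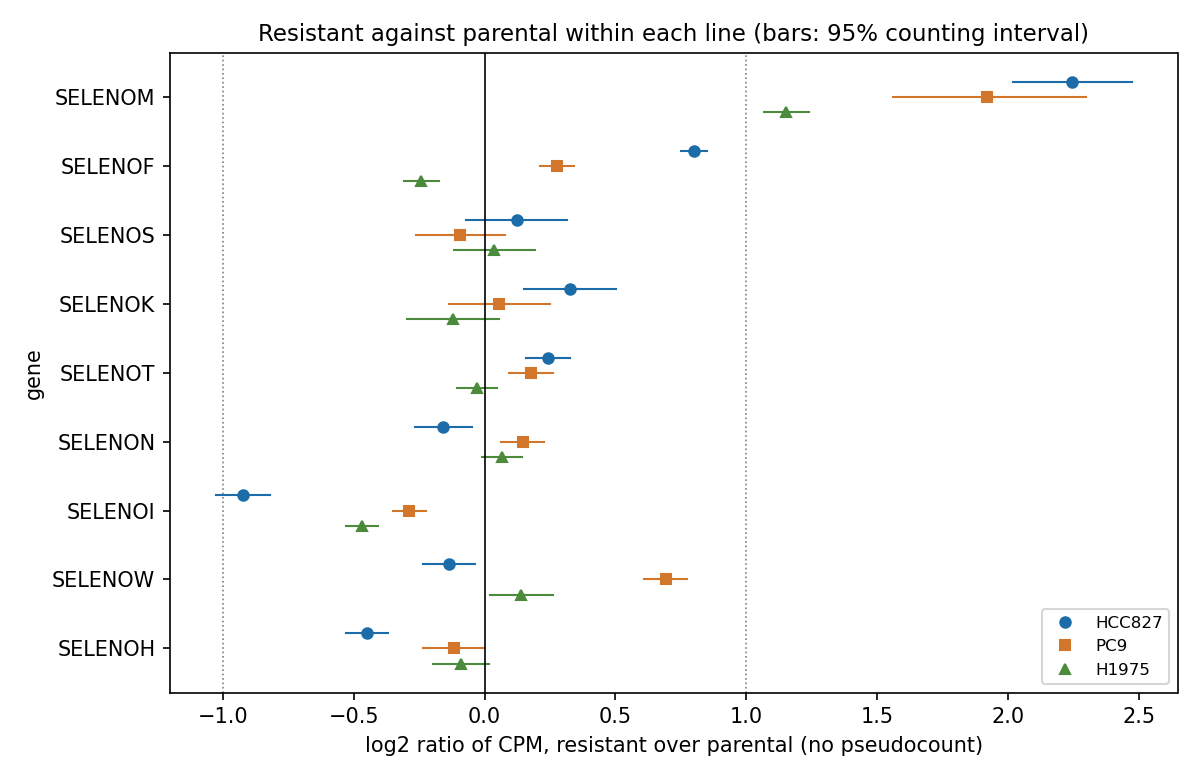
Log2 ratio of CPM, resistant over parental, for the 9 members that passed the filter, with a point per line and bars for the 95% counting interval (no replicates within a line). SELENOM alone lies beyond the dotted 2-fold lines, in all 3 lines, and SELENOI and SELENOH lie below 0 in each.

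SELENOM was the 1 member at 2-fold or more (1 CPM added to both libraries, the higher of which had to reach 10 CPM) in each line. The background of genes past 2-fold in either direction was 18.1% of 10290 genes in HCC827 (10.5% higher, 7.66% lower), 4.11% of 9901 in PC9 (2.41% higher, 1.7% lower) and 4.97% of 9937 in H1975 (1.75% higher, 3.22% lower). Of 13541 genes that passed the filter on low counts, 16 (0.118%) were at least 2-fold higher in all 3 lines, and SELENOM is one of them. SELENOM was chosen for being higher in every line, so its place among them is not independent of the choice. Among the 9 kept members 1 was higher and 2 were lower in all 3 lines, where 14.3% and 13.5% of all genes were. The median log2 ratio of the 10 members was −0.01 in HCC827, 0.10 in PC9 and 0.00 in H1975, with SELENOP near 0 reads in 2 lines. Over the 9 members that reached 10 CPM it was 0.115, 0.14 and −0.03, against −0.01, −0.02 and 0.05 over all genes that did. No member had parental and resistant libraries that did not overlap, where 2.23% of genes did. Over all genes, the edgeR quasi-likelihood test of resistant against parental libraries with the line as a block called 0 (0.0%), with 502 at an unadjusted p under 0.05. The count was also 0 in limma-voom, with 763 below the unadjusted threshold, and 58 (0.428%) in DESeq2, with 923 below it.

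The level of a member in a line, rather than its change, was not used in choosing it and was tested between the lines, with the state as a block and the 2 libraries of a line as its replicates. Those 2 libraries share their origin, and the state term removes the difference between states common to the lines. The p-values thus rest on how far the change with resistance varied between lines. They do not measure the spread between independent cultures of a line. SELENOM differed between lines (edgeR adjusted p = 0.0169), as did SELENOI (0.0295), SELENON (0.0391) and SELENOW (0.0421). These are 4 of 9 tested members, where 27.7% of 13541 genes were called. limma-voom called 4 members (background 35.4%) and DESeq2 5 (background 51.8%), the fifth being SELENOH (DESeq2 adjusted p = 0.00775). For SELENOH (adjusted p = 0.0568), SELENOS (0.132), SELENOF (0.137), SELENOT (0.414) and SELENOK (0.994) no difference passed in edgeR. With scaling by library size alone, edgeR called 3 members.

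Taken pair by pair, SELENOM was higher in H1975 than in PC9 by 3.68 ± 0.30 on the log2 scale (SE, edgeR adjusted p = 0.00136). Against HCC827 the H1975 difference was 2.56 ± 0.40 and did not pass (adjusted p = 0.0598). PC9 and HCC827 overlapped, with a difference of −1.12 ± 0.37 (PC9 minus HCC827, adjusted p = 0.128), so their order is not settled. For SELENOW the difference of H1975 from PC9 was −1.40 ± 0.24 (adjusted p = 0.00961). SELENOP, which passed the filter over these 4 libraries, was also called (−4.88 ± 1.21, adjusted p = 0.0266), on 68 and 58 reads in PC9 and 0 and 6 in H1975. SELENOI was lower in HCC827 than in PC9 by 1.63 ± 0.28 (adjusted p = 0.0536) and than in H1975 by 1.37 ± 0.29 (adjusted p = 0.0772), and neither difference passed. SELENON was also lower in HCC827, by 1.05 ± 0.24 against PC9 (adjusted p = 0.0764) and 0.96 ± 0.27 against H1975 (0.111). These pairwise fits used 4 libraries and called 40.9% of genes for PC9 and H1975, 6.38% for HCC827 and PC9, and 2.54% for HCC827 and H1975. Without PC9 or without H1975, 0 of the members passed, with SELENOM at an unadjusted p of 0.00271 and 0.0357.

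The difference between the osimertinib-selected line and the gefitinib-selected lines in the change with resistance was fitted with 1 residual degree of freedom. In edgeR it passed for 0 of 13541 genes in all, with 434 at an unadjusted p under 0.05. The count was 0 genes in limma-voom, with 494 below the unadjusted threshold, and 77 (0.569%) in DESeq2, with 495 below it. The change with resistance led to the choice of SELENOM, so no p-value of this fit is read for the members. With 1 osimertinib-selected line, drug, EGFR mutation and line cannot be told apart.

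The other selenoprotein genes, 15 in the list of which 11 passed the filter, include the glutathione peroxidases, the thioredoxin reductases and the deiodinases. None passed the edgeR test of states, which called 0 of 13541 genes. Of the 11, 3 were higher and 0 lower in all 3 resistant libraries, where 14.3% and 13.5% of all kept genes were. GPX3, a secreted glutathione peroxidase, was at 87.8 and 200 CPM in PC9 and at 91.9 and 25.8 CPM in H1975, parental first. It thus lay 2.28-fold higher in the resistant PC9 library (95% counting interval 2.16 to 2.41) and had a ratio of 0.281 (0.259 to 0.305) in H1975. In HCC827 it had 7 and 34 reads. Its difference between the drugs had an unadjusted p of 0.00383 in edgeR (adjusted p = 1.0). GPX2, the epithelial glutathione peroxidase, went from 442 reads to 2 in HCC827, a ratio of 0.00465 (0.000562 to 0.0169), and from 85.4 to 147 CPM in PC9. Only 17.4% of the GPX2 reads mapped uniquely.

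TXNRD1, the cytosolic thioredoxin reductase, was at 940 CPM in parental HCC827 and 361 CPM in HCC827-GR, a ratio of 0.384 (0.375 to 0.393). In PC9 (1786 and 2063 CPM) and H1975 (584 and 612 CPM) the resistant library was the higher one, though in H1975 the log2 TPM ratio was −0.03. DIO2, which activates thyroid hormone, went from 41.8 to 131 CPM in PC9 and had ratios of 1.03 and 1.12 in HCC827 and H1975. Log2 ratios in the order HCC827, PC9, H1975 were 0.31, −0.61 and −0.26 for GPX4, which removes lipid peroxides and guards against ferroptosis. They were −0.43, 0.02 and −0.72 for GPX1, the main cytosolic peroxidase. The mitochondrial reductase TXNRD2 had 0.44, 0.35 and 0.12, TXNRD3, a reductase of testis, −0.22, −0.04 and 0.27, and the methionine sulfoxide reductase MSRB1 0.46, 0.07 and −0.67. SEPHS2, which makes the selenium donor and is a selenoprotein itself, had 0.08, 0.17 and 0.30, and SELENOO, a mitochondrial AMP-transferase, −0.39, −0.20 and 0.30. DIO1 and DIO3 had at most 9 and 4 reads in a library, SELENOV at most 3, and GPX6 0 in all 6. The genes higher in all 3 lines were TXNRD2, DIO2 and SEPHS2, and scaling by library size alone left 1 of the 3. Each had a counting interval that held 1 in 1 line. These were DIO2 in HCC827 (0.711 to 1.49, from 62 and 62 reads), TXNRD2 in H1975 (0.972 to 1.22) and SEPHS2 in HCC827 (0.999 to 1.12).

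**Figure D4:**
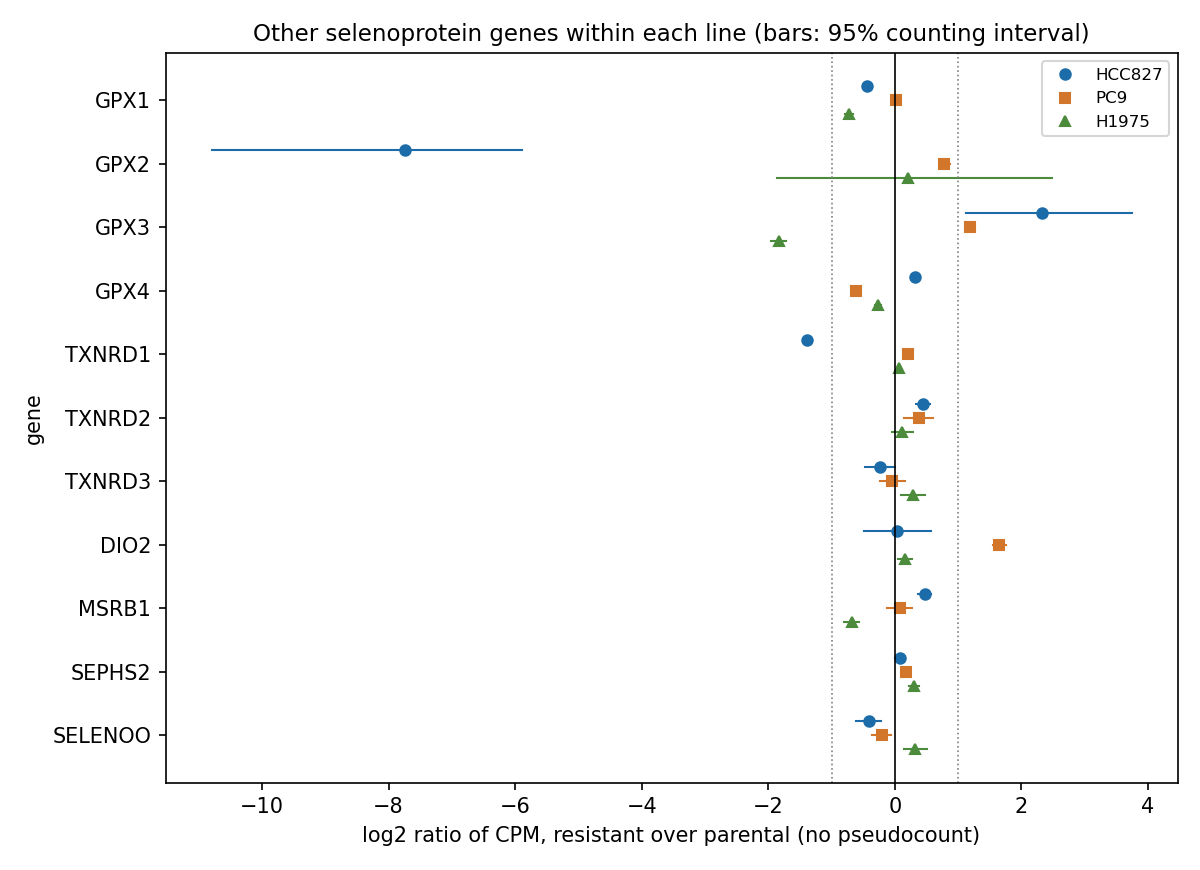
Log2 ratio of CPM, resistant over parental, for the 11 other selenoprotein genes that passed the filter, with a point per line and bars for the 95% counting interval. The GPX3 points of PC9 and H1975 lie on opposite sides of 0, and the GPX2 point of HCC827 lies far to the left on 2 resistant reads.

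Of 13 genes that serve selenocysteine insertion, all kept, 0 passed the edgeR test, which called 0 of 13541 genes. In all 3 resistant libraries 1 was higher and 2 were lower, where 14.3% and 13.5% of all kept genes were. SECISBP2, which binds the hairpin in selenoprotein mRNAs, gave log2 ratios of −0.12 (HCC827), −0.07 (PC9) and −0.33 (H1975), and SEPSECS, which converts the tRNA-bound precursor to selenocysteine, −0.20, −0.56 and −0.69. EEFSEC, the elongation factor for selenocysteine, had 0.28, 0.03 and 0.18. Of 4 kept genes of selenium uptake and recycling, 0 passed. LRP8, a receptor for SELENOP, was lower in all 3, as were 13.5% of all kept genes. The parental and resistant levels of LRP8 were 55.0 and 31.5 CPM (HCC827), 108 and 83.6 CPM (PC9), and 74.5 and 62.5 CPM (H1975).

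The edgeR test of states called 0 of 13541 genes, so it called none of the ER genes around the members. Over all kept genes, 14.3% were higher and 13.5% lower in all 3 lines. For ER-associated degradation and glycoprotein quality control, 2 of 11 kept genes were higher in all 3 lines and 0 lower: VCP, the ATPase that SELENOS recruits, at 0.10, 0.08 and 0.18, and DERL2, a channel component, at 0.03, 0.05 and 0.12. With library size alone neither was higher in all 3. For ER oxidative folding 2 of 13 were higher and 4 lower in all 3. The disulfide isomerase P4HB had log2 ratios of 0.37, 0.24 and 0.22, while its relatives PDIA4 (−0.54, −0.38 and −0.54) and PDIA6 (−0.47, −0.38 and −0.28) and the oxidase ERO1A (−1.08, −0.35 and −0.04) were lower. Of 10 ER stress genes 1 was higher in all 3, HERPUD1, a stress-induced degradation factor, at 0.39, 0.35 and 0.47. Of 7 kept ER calcium genes 1 was higher and 1 lower in all 3, the calcium release channels ITPR3 (0.18, 0.11 and 0.11) and ITPR2 (−0.39, −0.24 and −0.02). The log2 ratio of each gene was first averaged over the lines, and the median of these gene means was then taken per list. It was 0.10 for the degradation genes, 0.12 for folding, 0.21 for ER stress and 0.10 for calcium handling. Over all kept genes it was 0.00, and over the 9 kept members 0.08. In HCC827, PC9 and H1975 taken singly, the medians were 0.10, 0.14 and −0.01 for degradation and 0.04, −0.07 and −0.04 for folding. They were 0.37, −0.003 and 0.15 for ER stress and 0.18, 0.11 and −0.23 for calcium handling. None of these lists thus had a median above 0 in all 3 lines.

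The genes next to SELENOM on chromosome 22 were compared in the same way. Within 250 kb lay 9 other protein-coding genes, of which 8 passed the filter. Of these 2 were higher and 0 lower in all 3 resistant libraries, where 14.3% and 13.5% of all kept genes were. The 2 were LIMK2, a kinase of the actin cytoskeleton (log2 ratios 0.03, 0.45 and 0.04 in HCC827, PC9 and H1975), and the transcription factor PATZ1 (0.05, 0.18 and 0.11). SMTN, which encodes a protein of smooth muscle and ends 14 bases from SELENOM on the other strand, had −0.05, 0.64 and 0.04. INPP5J, an inositol phosphatase that starts 2661 bases beyond the other end, had 1.43, 0.83 and −0.04, from 1.05 to 4.52 CPM in HCC827 and 0.289 to 1.29 CPM in PC9. With no CPM added the INPP5J ratios were 4.29, 4.47 and 0.973, close to SELENOM in HCC827, above it in PC9 and below it in H1975. PIK3IP1, an inhibitor of PI3K, had 1.23, 0.33 and −0.34, RNF185, a ubiquitin ligase, 0.56, −0.15 and 0.26, MORC2, a silencing factor, −0.42, 0.41 and 0.29, and OSBP2, a sterol-binding protein, −0.03, 0.70 and −1.08. PLA2G3 was at most at 0.0482 CPM. The median of the 8 neighbours was 0.04 in HCC827, 0.43 in PC9 and 0.04 in H1975.

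**Figure D5:**
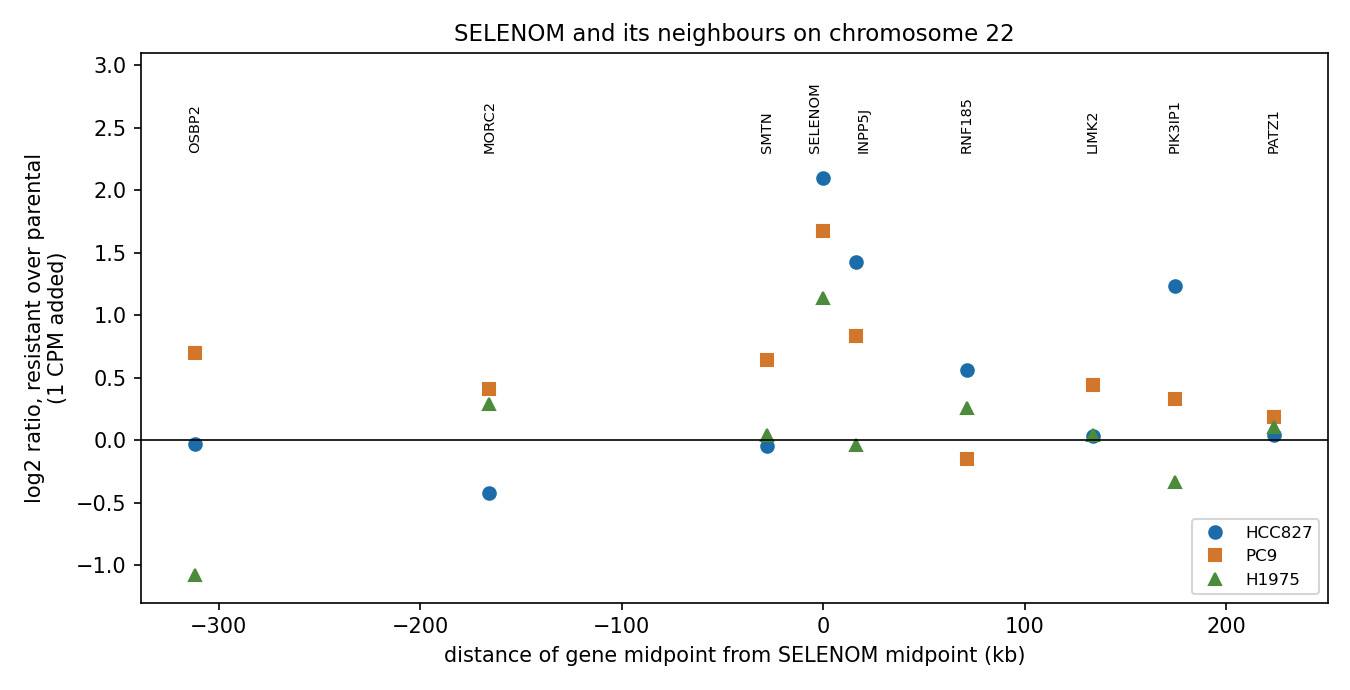
Log2 ratio of CPM, resistant over parental (1 CPM added), for SELENOM and the 8 neighbouring genes that passed the filter, by distance of the gene's midpoint from that of SELENOM in kb, with a point per line. On this scale SELENOM, at 0 kb, lies above every neighbour in each line, but with no CPM added INPP5J had a ratio of 4.47 in PC9 against 3.79 for SELENOM.

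The genes whose level over the 6 libraries was most like that of SELENOM were RAB18, a small GTPase of lipid droplets and the ER (Pearson's r = 0.996 of log2 CPM with 1 added), ARMCX4 (0.990), the phosphatase PPM1F (0.990), TENT5A (0.988) and the formin FMNL3 (0.987). They were ranked among 9896 genes with at least 10 CPM in at least 3 libraries, and the libraries come in pairs of 1 line. RAB18 ranged from 66.1 CPM in parental PC9 to 125 CPM in H1975-OR, with log2 ratios of 0.29 (HCC827), 0.32 (PC9) and 0.21 (H1975). FMNL3 ranged from 6.75 to 50.3 CPM over the same libraries, with 1.51, 0.75 and 0.64. Both were lowest and highest in the libraries where SELENOM was, which their choice by correlation over the same libraries makes likely.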

How the data were processed

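The authors deposited raw counts of total and unique exon reads and of intron reads for every gene of a sample, named so per the file headers. The authors also deposited TPM, which per the file headers stand in the same tables. Trimmomatic, Bowtie2 and hg38 appear in the submitters' processing notes, without version or role. The kit was stranded, per the labels' protocols, while counting tool, annotation release and use of strand were not given in the sources used here. A series table holds the same TPM rounded (largest difference 0.005) and was not used.

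Total exon reads (21222102 to 29366085 per library) were scaled by TMM. edgeR 4.0.16 (R 4.3.3) was fitted to the 13541 genes that filterByExpr left. It asks for at least 10 reads, scaled to library size, in as many libraries as a group holds, and a total of at least 15. Two-sided p-values were adjusted by Benjamini-Hochberg across all genes left, with a threshold of 0.05. The alternatives were limma 3.58.1 and DESeq2 1.42.0. The test of states had the line as a block and 2 residual degrees of freedom. The SE of an edgeR log2 fold change is its absolute value over the square root of its F statistic. It draws on dispersion shared across genes and is not the spread of the ratios within the lines. Scripts were tested on simulated counts with less spread than these data, so that check covers the code alone. Each subline comes from its own parental line; deviations from the group means correlated at 0.592 to 0.844 within lines and at −0.624 to −0.154 between them. Within a line, log2 ratios had 1 CPM added; fold ratios had none and carry 95% Clopper-Pearson intervals. The gene lists (15 with the members as 1 of them, 118 genes, all matched, 1 by an older symbol) were chosen with earlier results of these data known. Named genes are all selenoproteins, up to 4 genes per list with 1 sign in all lines, the neighbours of SELENOM, the 5 genes most like it and genes of the cell type marker lists; the leukocyte, endothelial, fibroblast and alveolar marker lists had at most 2 kept genes each, 0 of them with 1 sign in all lines.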

Additional observations from a re-analysis of the deposited data

How the results depend on the processing

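The count of 0 genes called between states in edgeR held under each scaling, filter, the unique reads, limma-voom, each left-out line and with no replicate block, and was 58 with DESeq2. The pairing by line is given by the labels, and the fit with no replicate block gave SELENOM 1.35 in place of 1.77. Between lines DESeq2 called 7019 genes against 3751, and leaving out each line gave 351 to 5695 genes and 0 to 3 members, with 1 residual degree of freedom. DESeq2 called 77 genes for the difference between the drugs against 0. Members at 2-fold or more in HCC827 numbered 2 with library size alone, as SELENOI then stood at −1.01. With a minimum of 1 CPM, 728 genes in PC9 and 884 in H1975 were at 2-fold or more, against 407 and 494. The median of all 10 members was 0.012 in PC9 with unique reads, and −0.0687 and −0.0943 in H1975 with library size alone and with TPM. No scaling moved the median of all genes by over 0.1 in any line. In H1975 SELENOS and SELENON were lower in the resistant library with library size alone and with TPM. No called value changed sign. Low counts limit SELENOP, SELENOM introns and GPX3 in HCC827.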
